A study of Mus musculus with 18 samples.

Results

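The nuclear genes of the oxidative phosphorylation system were followed in liver RNA sequencing of 18 mice. Members were every row of the expression table whose symbol begins with Nduf, Uqcr, Cox4, Cox5, Cox6, Cox7, Cox8 or Atp5, together with Sdha, Sdhb, Sdhc, Sdhd and Cyc1. This rule found 95 of the 19057 genes and used no measured value. By complex, 38 members carry symbols of complex I subunits, 4 of complex II, 9 of complex III, 19 of complex IV, including Ndufa4 and its paralog Ndufa4l2, and 16 of complex V. Among the 38, Ndufb4c is annotated as a processed pseudogene in GENCODE M21 and may share reads with Ndufb4. A further 8 were assembly factors of complex I (Ndufaf1 to Ndufaf8), which are not part of the finished enzyme, and 1 was Atp5s, coupling factor B.

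Oxidative phosphorylation takes place in the inner mitochondrial membrane. Complex I accepts electrons from NADH and complex II from succinate, complex III passes them to cytochrome c, and complex IV hands them to oxygen, while protons are moved across the membrane. Complex V, the ATP synthase, lets the protons return through its membrane part Fo and makes ATP in its F1 head. Hepatocytes are rich in mitochondria and feed this chain largely from fatty acid oxidation and the tricarboxylic acid cycle. A few subunits of complexes I, III, IV and V are encoded by mitochondrial DNA and were not analysed here.

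The mice were male ICR mice, sampled at 10 weeks of age, with 3 mice in each of 6 groups. Con mice were controls. STZ mice had a single dose of streptozotocin, a toxin of the insulin-producing beta cell that makes mice diabetic. A10-FMT and Con-FMT mice also had STZ and then received, once a day for 2 weeks, pooled small intestinal content of donor mice dosed with alginate oligosaccharide (AOS, 10 mg/kg) or with water. AOS and STZ+AOS mice were labelled as given AOS at 10 mg/kg, without and with STZ. The donor content was pooled within each donor group, so the transplanted mice of a group share their donor material.

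Levels are RPKM, read counts divided by transcript length and by the mapped reads of the library, as the authors deposited them. The RPKM of a library summed to between 621121 and 806937. Between 9955 and 10409 genes reached 1 RPKM in a library. Sequencing depth is not given in the sources used here, but the steps between the lowest values of 14 genes put the relative depths of the libraries between 0.923 and 1.11. The tissue was as labelled: 5 of 6 hepatocyte markers were in the table, and their summed RPKM was 50732 to 68457 in Con. Of these 5, 3 fell in STZ. Kupffer cell markers summed to 56.3 to 88.4 RPKM in Con and 88.2 to 194 in STZ, with 1 of 6 called higher. Stellate cell markers summed to 75.2 to 84.6 in Con and 111 to 135 in STZ, with 1 of 5 called higher. Endothelial markers summed to 35.6 to 40.2 in Con and 38.4 to 50.5 in STZ, with 2 of 5 called higher. Of the erythroid markers 1 of 4 and of the cholangiocyte markers 1 of 2 was called lower. The part of these cells in the results below was not tested, and in whole liver fewer cells of a type and less RNA per cell cannot be told apart.

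The major urinary protein (Mup) genes, whose products hepatocytes secrete, took up very unequal shares of the libraries. They held between 23.7% and 35.8% of the summed RPKM in the 3 Con mice, but 0.0327%, 0.0274% and 19.2% in the 3 STZ mice. RPKM is a share of the library, so genes that take up much of it weigh on all others. The median gene was 0.21 higher in STZ than in Con on the log2 scale. Changes are therefore also given relative to this shift and after median-ratio scaling, which puts the median gene near 0. STZ mouse 3 stood apart from the other STZ mice, with the lowest value of the 3 for 83 of the 91 members tested (49.7% of all tested genes were lowest there). Con mouse 1 was the lowest Con mouse for 84 members (62.5% of genes), and Con-FMT mouse 1 was the highest of its group for 88 (59.9% of genes).

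Of the 95 members, 75 had a RefSeq promoter on GRCm38.p6, and 4 are shown because many members, though not all, rose in STZ liver. Atp5b had the largest called change and Ndufa3 the lowest change of all subunits. Sdhb and Atp5g2 were called subunits whose promoter held an NRF1 half-site before the RefSeq start. Uqcrc1, called with a change of 0.71, also held the NRF1 letters in its promoter window and is not shown. Only genes with a single listed start were shown. Each sequence is the 250 bases before the transcript start, read 5′ to 3′ on the strand of the gene. The coordinates are chr10:128083057-128083306 (plus strand) for Atp5b, chr4:140961021-140961270 (plus) for Sdhb, chr15:102671048-102671297 (minus) for Atp5g2 and chr7:3617123-3617372 (plus) for Ndufa3. Capitals mark matches to the letters of NRF1, GCGCATGC, of the ETS factor GABP, CCGGAAGT, or of YY1, AAGATGGC, on either strand.
Atp5b: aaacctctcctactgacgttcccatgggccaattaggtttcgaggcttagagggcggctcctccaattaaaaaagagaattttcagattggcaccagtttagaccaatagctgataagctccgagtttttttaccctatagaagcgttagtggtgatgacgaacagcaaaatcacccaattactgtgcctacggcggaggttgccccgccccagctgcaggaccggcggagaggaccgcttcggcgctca
Sdhb: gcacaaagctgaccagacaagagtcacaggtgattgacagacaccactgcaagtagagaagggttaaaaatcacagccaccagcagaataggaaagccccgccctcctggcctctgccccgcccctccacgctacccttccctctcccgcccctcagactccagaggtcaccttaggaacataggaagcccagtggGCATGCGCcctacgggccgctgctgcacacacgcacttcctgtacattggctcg
Atp5g2: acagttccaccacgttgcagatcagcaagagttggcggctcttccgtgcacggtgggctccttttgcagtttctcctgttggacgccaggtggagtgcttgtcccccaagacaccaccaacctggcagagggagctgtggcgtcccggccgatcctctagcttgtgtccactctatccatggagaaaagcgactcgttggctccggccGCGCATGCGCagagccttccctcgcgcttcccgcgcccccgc
Ndufa3: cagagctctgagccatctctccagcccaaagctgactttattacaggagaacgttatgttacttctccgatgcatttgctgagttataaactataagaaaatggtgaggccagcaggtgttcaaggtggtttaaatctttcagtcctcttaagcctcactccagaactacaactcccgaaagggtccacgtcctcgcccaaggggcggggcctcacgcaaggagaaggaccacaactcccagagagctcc

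NRF1, GABP and YY1 are transcription factors known for binding promoters of nuclear respiratory genes. The NRF1 letters were in the 300-base promoter window (250 bases before to 50 after the start) of 12 of the 75 members, 16.0%, against 6.23% of 8441 tested genes with a promoter. The YY1 letters were in 10 members, 13.3%, against 5.64%, and the GABP letters in 5 members, 6.67%, against 9.80%. The NRF1 match of Sdhb began 54 bases before its RefSeq start. Atp5g2 held overlapping matches on opposite strands that began 42 and 40 bases before its RefSeq start. Atp5b held none of the 3 sets of letters, and the match of Ndufa3 was to YY1, at the 23rd base after the start, outside the stretch shown. Among members called higher in STZ, 6 of 39 with a promoter held the NRF1 letters, and among tested members not called 6 of 34 did.

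Most members were among the abundant transcripts of the liver. Over the 18 mice, 66 members averaged at least 100 RPKM, 16 averaged 10 to 100, 7 averaged 1 to 10 and 6 averaged less than 1. The highest was Ndufa4, now counted as a subunit of complex IV, at a mean of 949 RPKM, followed by Atp5b, the catalytic beta subunit of the F1 head, at 902 and by Cox6a1 at 850. The highest members of the other complexes were Uqcrb at 523 in complex III, Ndufb9 at 363 in complex I and Sdhb at 267 in complex II. The assembly factors were far lower, from 6.12 for Ndufaf7 to 40.3 for Ndufaf8. In all, 91 members reached 1 RPKM in at least 3 mice and were tested. The 4 that did not, Cox4i2, Cox6a2, Cox7b2 and Cox8b, are isoforms known from lung, muscle, heart, testis or brown fat, and none exceeded 0.95 RPKM in any mouse.

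The summed level of the members was higher in STZ than in Con. The 95 members together held 14882, 18621 and 17267 RPKM in the 3 Con mice and 28288, 26262 and 19563 in the 3 STZ mice. All STZ mice were above all Con mice, although STZ mouse 3 was closer to Con mouse 2 than to either other STZ mouse. The mean was 16924 ± 1893 (SD, n = 3) in Con and 24704 ± 4567 in STZ, a ratio of 1.46, which was 1.21 after median-ratio scaling. AOS mice held 18752, 17076 and 16551 RPKM, within the range of Con but for the highest, and STZ+AOS mice 21993, 27640 and 20153. The A10-FMT mice were nearly alike at 22122, 22443 and 22127, while the Con-FMT mice held 27703, 19718 and 21590. In RPKM as deposited, every STZ-treated mouse, transplanted or not, was above every mouse without STZ. After scaling this separation was lost, with STZ+AOS mouse 3 at 18275 below Con mouse 2 at 20219 and Con mouse 3 at 19190, and STZ mouse 3 at 19468 and Con-FMT mouse 2 at 20176 also below Con mouse 2. Complex by complex, the STZ to Con ratio of the summed RPKM was 1.36 for complex I, 1.67 for II, 1.43 for III, 1.46 for IV and 1.55 for V, and 1.08 for the assembly factors of complex I. After scaling these ratios were 1.12, 1.38, 1.19, 1.21 and 1.28, and the ratio of the assembly factors turned to 0.898.

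**Figure D1:**
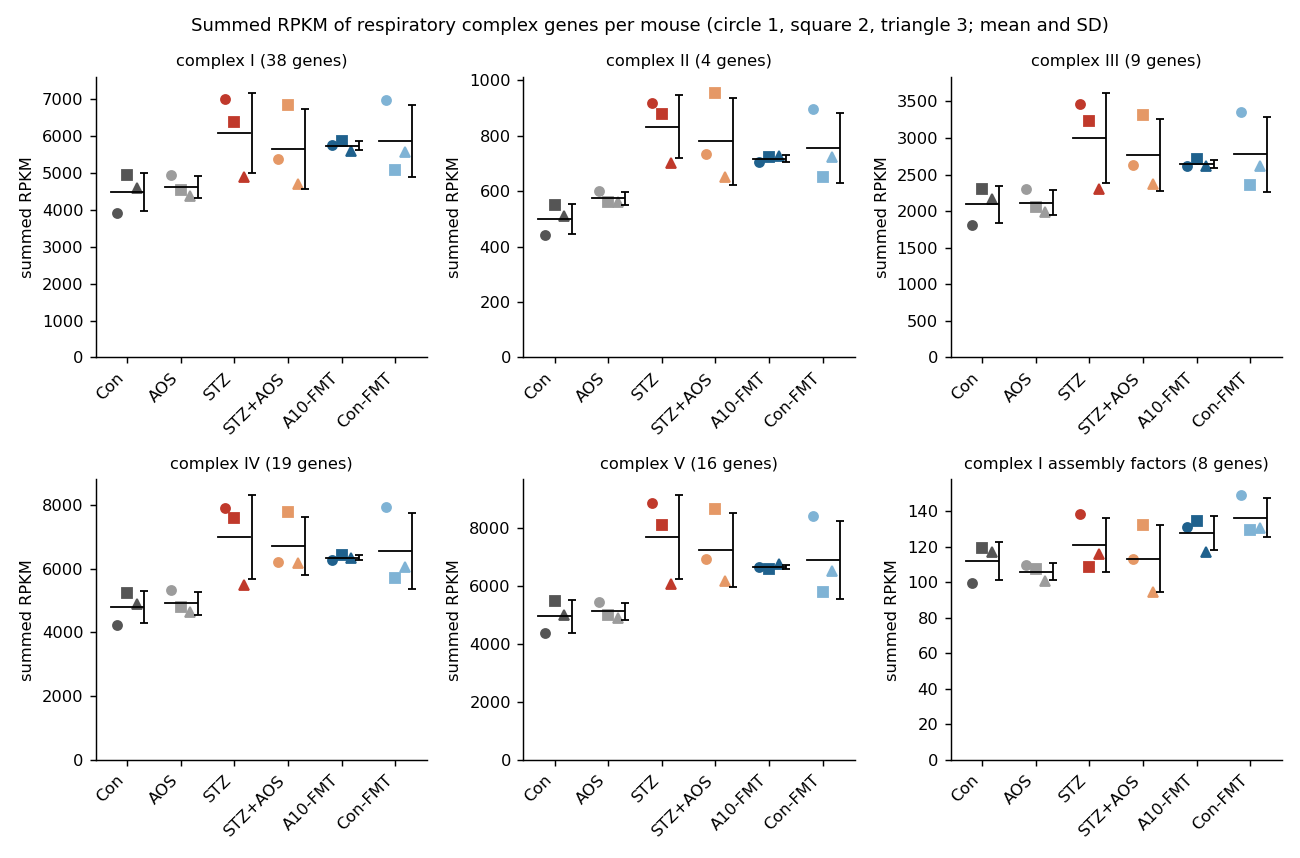
Summed RPKM (vertical axis, from 0) of the members of each complex in every mouse of the 6 groups (horizontal axis), with the group mean as a line and its SD as a bar (n = 3). For complexes I to V the mean was higher in all 4 STZ-treated groups than in Con and AOS, and the A10-FMT mice lay close together, while the 8 assembly factors ranged from 94.3 to 149 RPKM, with a STZ to Con ratio that turned below 1 after scaling.

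STZ against Con asked what a diabetic liver does to these genes, and many of them rose. Of the 91 members tested, 51 were higher in STZ and 0 were lower (limma on log2(RPKM + 1), adjusted p under 0.05 over all 10602 tested genes). Across all tested genes, 33.0% were called higher and 5.52% lower, against 56.0% of members called higher. The median change of members was 0.50 on the log2 scale, 0.29 above the median of all genes, and 87 of 91 changes were positive. By complex, 20 of 38 tested members of complex I rose, 4 of 4 of complex II, 6 of 9 of complex III, 8 of 15 of complex IV and 11 of 16 of complex V, but only 1 of 8 assembly factors. Changes were moderate in size, since 34 members were called at 1.5-fold or more and 1, Atp5b, at 2-fold or more. For 49 members, 53.8%, all 3 STZ mice were above all 3 Con mice, against 40.8% of all tested genes. Fold changes on this scale understate the change of genes near or under 1 RPKM.

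The scaling and single mice set how many members were called. After median-ratio scaling 26 members were higher and 2 lower, where 14.0% of all genes were called higher and 13.2% lower, and all 26 were also among the 51. The median change was then 0.23 for members and -0.01 for all genes. Without STZ mouse 3, 70 members were called higher, against 39.8% of genes, and these included all 51. Leaving out STZ mouse 1 gave 26 of 91 members called, all higher, which is 28.6%, near the 26.0% of all genes called higher in that fit. Leaving out STZ mouse 2 gave 27 (29.7%, against 21.5% of genes), Con mouse 1 gave 26 (28.6%, against 20.1%) and Con mouse 3 gave 30 (33.0%, against 22.9%). Leaving out Con mouse 2 gave 49 (53.8%, beside 3053 of 10568 genes called higher). Each of these fits holds fewer mice, so a lower count alone does not show dependence on 1 mouse. The share of members was nearest that of genes without STZ mouse 1, where medians were 0.39 for members and 0.20 for genes. Without any other single mouse the median was 0.43 to 0.66 for members and 0.18 to 0.25 for genes.

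**Figure D2:**
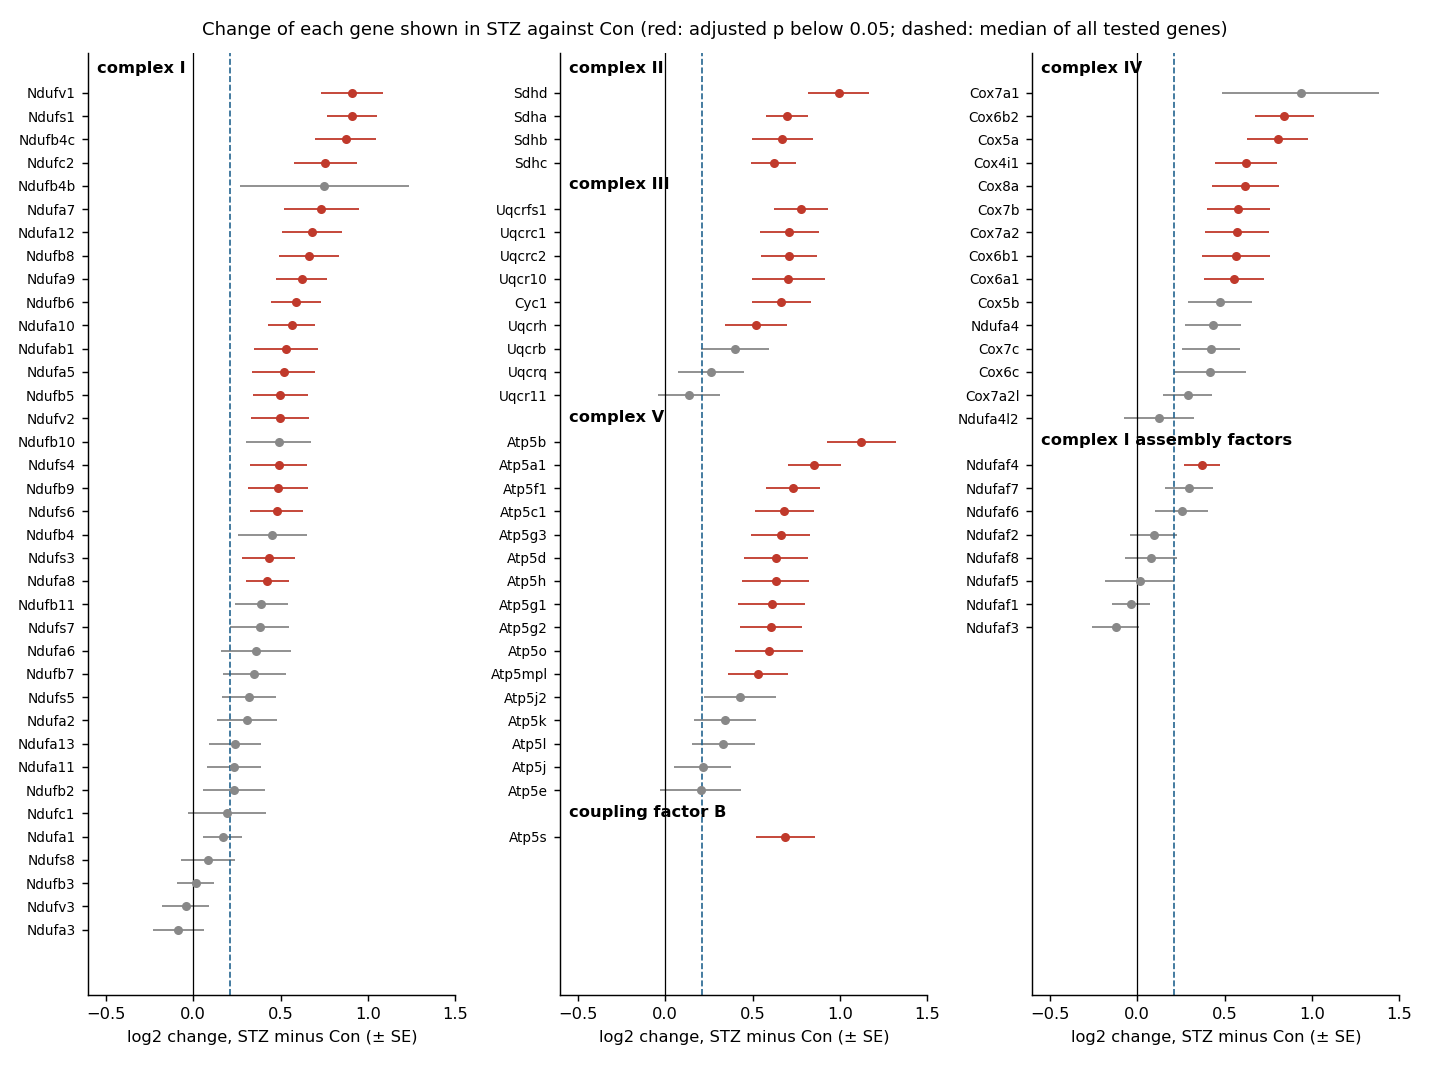
Log2 change in STZ against Con (horizontal axis, RPKM + 1, bars are SE) of 90 of the 91 tested members, sorted within each complex, with members at adjusted p under 0.05 in red. Most lie to the right of 0.21, the median of all tested genes shown dashed, and the members of complex I reach from -0.08 for Ndufa3 to 0.91 for Ndufv1. After median-ratio scaling the whole axis shifts and members near 0 turn negative.

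Complex V had the largest single change. Atp5b, on chromosome 10 at 128083273 to 128090391 (mm10), held 486, 625 and 570 RPKM in the Con mice and 1355, 1351 and 979 in the STZ mice. The groups did not overlap, and the change was 1.12 ± 0.20 (SE) on the log2 scale (adjusted p = 0.0021, limma). Atp5a1, the alpha subunit that alternates with beta in the F1 head, held 308, 361 and 351 RPKM in Con and 670, 650 and 528 in STZ, a change of 0.85 ± 0.15 (adjusted p = 0.0023, limma). In all, 4 of 5 subunits of the head and 7 of 11 of the Fo part and stalk were called. The exception in the head was the small epsilon subunit Atp5e, where the Con mice held 257, 302 and 268 RPKM and the STZ mice 425, 266 and 282. Its groups overlapped, and the change of 0.20 ± 0.23 did not pass the test. Atp5j, coupling factor 6 in the stalk, was next lowest at 0.21 ± 0.16. Both changes turned negative after scaling. The 3 genes that encode the same membrane ring subunit c changed by nearly the same amount, Atp5g1 by 0.61, Atp5g2 by 0.60 and Atp5g3 by 0.66, and all were called, although reads may be shared between them. After scaling only Atp5g3 of the 3 was called.

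In complex II, which is also succinate dehydrogenase of the tricarboxylic acid cycle, all 4 subunits rose. Sdhd, a membrane anchor (chromosome 9 at 50596357 to 50603812), held 74.2, 94.0 and 85.9 RPKM in Con and 193, 187 and 133 in STZ, a change of 0.99 ± 0.18 (adjusted p = 0.0022, limma). Sdha, the flavoprotein that oxidises succinate, held 94.7, 117 and 106 RPKM in Con and 166, 181 and 168 in STZ. The 3 STZ mice lay close together for Sdha, with mouse 3 between the others, and the change was 0.70 ± 0.12 (adjusted p = 0.0018, limma). The iron-sulfur subunit Sdhb changed by 0.67 ± 0.17 and the second anchor Sdhc by 0.62 ± 0.13. All 4 stayed called after scaling, and Sdhb lost its call when Con mouse 1 was left out.

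Within complex I, 2 subunits of the electron input module, Ndufs1 and Ndufv1, had the largest changes. The module did not lead as a whole, since Ndufv2 changed by 0.50 and Ndufv3 was among the lowest members. Ndufs1, the largest iron-sulfur subunit (chromosome 1 at 63143596 to 63176833), held 29.4, 41.2 and 35.2 RPKM in Con and 70.0, 70.6 and 59.5 in STZ, a change of 0.91 ± 0.15 (adjusted p = 0.0013, limma). Ndufv1, the flavin-carrying subunit that binds NADH, held 55.4, 68.1 and 66.8 RPKM in Con and 131, 133 and 98.2 in STZ, a change of 0.91 ± 0.18 (adjusted p = 0.0032, limma). Neither gene overlapped between the groups. Of 7 nuclear core subunits 5 were called, and of 31 accessory subunits 15. The core subunit Ndufs8, which carries iron-sulfur clusters on the way to ubiquinone, was 80.2, 107 and 101 RPKM in Con and 114, 105 and 86.0 in STZ, and its groups overlapped. At the lower end stood the accessory subunits Ndufa3, with 273, 318 and 324 RPKM in Con and 349, 285 and 237 in STZ, and Ndufv3, with 130, 162 and 167 in Con and 169, 144 and 132 in STZ. Their changes were -0.08 ± 0.15 and -0.04 ± 0.13, both short of the test, and both were above 0 without STZ mouse 3. After scaling, Ndufa3 at -0.35 and Ndufb3 at -0.25 were the 2 members called lower. Ndufb4b was the lowest member of complex I, at 1.92, 0 and 0.49 RPKM in Con and 1.81, 3.89 and 0.51 in STZ. It may share reads with Ndufb4 and Ndufb4c.

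Of the 8 assembly factors of complex I, 1 was called in STZ against Con. Their median change was 0.09, a difference of -0.13 from the median of all genes, against a median of 0.48 for the subunits. Ndufaf4 was the 1 called, with 8.40, 9.48 and 9.22 RPKM in Con and 12.8, 11.9 and 11.2 in STZ and a change of 0.37 ± 0.10 (adjusted p = 0.016, limma), a call lost after scaling. The lowest were Ndufaf3 at -0.12 ± 0.13 and Ndufaf1 at -0.03 ± 0.11, and Ndufaf7 was next to Ndufaf4 at 0.30 ± 0.14. A test of subunits against assembly factors was not run.

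In complex III the electron-carrying and core proteins rose, and the 3 members not called were small subunits. Uqcrfs1, the Rieske iron-sulfur protein (chromosome 13 at 30540308 to 30545362), held 107, 128 and 125 RPKM in Con and 225, 222 and 174 in STZ. The groups did not overlap, and the change was 0.77 ± 0.16 (adjusted p = 0.0036, limma). Cyc1, cytochrome c1, held 123, 158 and 146 RPKM in Con and 259, 237 and 186 in STZ, a change of 0.67 ± 0.17, and the core protein Uqcrc1 changed by 0.71 ± 0.17. Of the 5 small subunits 2 were called. Uqcr11 was lowest, with 317, 412 and 396 RPKM in Con and 499, 417 and 332 in STZ, and Uqcrq was next at 0.26 ± 0.19. Both turned negative after scaling.

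Complex IV, cytochrome c oxidase, has subunits with isoforms that differ between tissues, and the liver forms rose. Cox5a, a regulatory subunit (chromosome 9 at 57521274 to 57532426), held 244, 257 and 262 RPKM in Con and 512, 490 and 350 in STZ, a change of 0.80 ± 0.18 (adjusted p = 0.0055, limma). Cox4i1, the ubiquitous form of subunit 4, held 384, 476 and 446 RPKM in Con and 747, 751 and 533 in STZ, a change of 0.62 ± 0.18. Cox6a1, Cox6b1, Cox7a2 and Cox8a, the forms found in most tissues, changed by 0.56, 0.57, 0.57 and 0.62, and all 4 were called. Their calls and that of Cox4i1 were lost after scaling, where Cox5a kept its own. Ndufa4 changed by 0.43 ± 0.16 (adjusted p = 0.053, limma), its low paralog Ndufa4l2 by 0.12 ± 0.20, turning negative after scaling, and the supercomplex factor Cox7a2l by 0.29 ± 0.14.

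The minor isoforms behaved differently from one another. Cox6b2, known as the testis form of subunit 6B (chromosome 7 at 4751792 to 4753094), held 0.34, 0.21 and 0.37 RPKM in Con and 1.37, 1.35 and 1.29 in STZ. STZ mouse 3 was level with the other STZ mice here, unlike for most members. The mean RPKM was 4.36 times that of Con. Cox6b2 passed the filter only through the STZ and STZ+AOS mice and 1 Con-FMT mouse, so it had to differ to be tested, and its values are a description, although it counts among the 51 members called. Cox7a1, the heart and skeletal muscle form of subunit 7A (chromosome 7 at 30184144 to 30186078), held 3.19, 4.30 and 4.02 RPKM in Con and 11.4, 16.8 and 2.52 in STZ. STZ mice 1 and 2 were above and mouse 3 below every Con mouse, and the change of 0.93 ± 0.45 did not pass the test (adjusted p = 0.12, limma). Without STZ mouse 3 it was called. The skeletal muscle markers Acta1, Ckm and Myh4 summed to at most 0.07 RPKM in any mouse. The untested isoforms stayed low, with Cox4i2 at 0, 0.22 and 0 RPKM in Con and 0.95, 0.36 and 0.11 in STZ, Cox8b listed at 0 in 14 of 18 mice, and Cox6a2 and Cox7b2 above 0 in 3 and 1 mice.

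**Figure D3:**
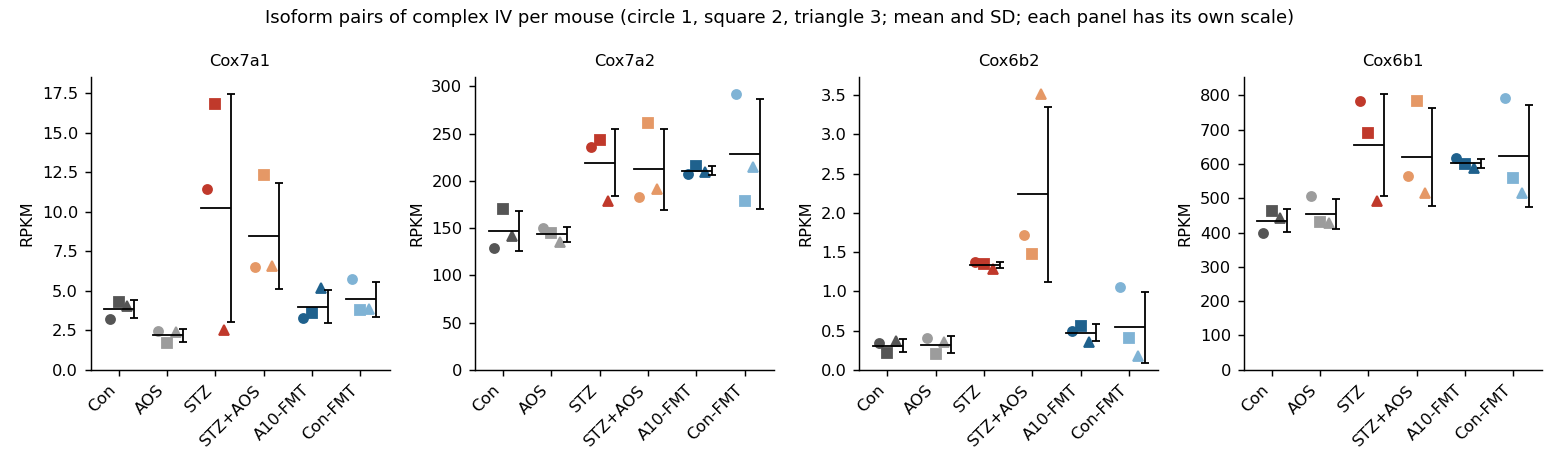
RPKM (vertical axis, from 0, each panel on its own scale) of the minor isoforms Cox7a1 and Cox6b2 and of the main liver forms Cox7a2 and Cox6b1 in every mouse of the 6 groups, with mean and SD (n = 3). Cox6b2 was between 1.29 and 3.52 in the 6 STZ and STZ+AOS mice and at most 1.05 elsewhere, whereas Cox7a1 in STZ mouse 3 was 2.52, below every Con mouse.

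The members are spread over the genome, and neither transcript length nor level ranked closely with their change. The 94 members found in the GENCODE M21 annotation of mm10 lay on 19 chromosomes, with at most 9 on 1 of them, chromosome 7. Their transcripts were short, with a median of 926 bases for the longest transcript of each tested member against 2976 for all tested genes found there. Across 90 members the rank correlation of length with the STZ change was 0.17, and across 91 members that of mean level with the change was also 0.17 (0.06 and 0.15 over all genes). These are descriptions across genes of the same libraries, and genes are not independent replicates.

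No member passed the test between either transplanted group and STZ. The comparison of A10-FMT with STZ asks whether microbiota from AOS-dosed donors altered the STZ liver. Of 91 members 0 were called, 6 had an unadjusted p under 0.05 (limma), and 0.226% of all genes were called. The median change was -0.11, beside -0.05 for all genes. It had no stable direction, at 0.01 without STZ mouse 1 and -0.27 without STZ mouse 3. For Con-FMT against STZ 0 members were called, 3 had an unadjusted p under 0.05 (limma), 0.00943% of genes were called, and the median was -0.09, which turned to 0.02 without STZ mouse 1 and 0.01 without Con-FMT mouse 2 and was -0.23 without Con-FMT mouse 1 and -0.24 without STZ mouse 3. The median SE of a member was 0.17 in both, as in STZ against Con. These comparisons share the STZ mice. Leaving out STZ mouse 3 gave 5 of 91 members lower in A10-FMT, among them Cox7a1, Cox6b2, Cox5a and Sdhd, beside 943 of 10580 genes lower. In Con-FMT it gave 2 of 91 lower, Cox7a1 and Cox6b2, beside 1041 of 10580 genes lower. Counting both directions, 12.7% and 15.5% of genes were called. Without STZ mouse 1, 1 member, Ndufaf6, was higher in A10-FMT, which is 1.10% of members, with 31 of 10548 genes called higher. Without Con-FMT mouse 1, 1 member, Cox6b2, was lower in Con-FMT, with 12 of 10559 genes called lower. Cox6b2 was tested only because it was high with STZ, so its calls against STZ are a description.

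Against Con, 19 members were higher and 0 lower in A10-FMT, where 15.9% of genes were called higher and 2.47% lower. In Con-FMT 27 were higher and 0 lower, where 17.5% of genes were called higher and 1.89% lower. The Con mice are shared by both comparisons and by STZ against Con. Medians of the members were 0.39 and 0.42, which lay 0.23 above the median of all genes in each. The smallest adjusted p in A10-FMT belonged to Ndufaf4, the pseudogene Ndufb4c and Ndufaf6. Ndufaf6, an assembly factor, held 6.78, 8.55 and 7.29 RPKM in Con, 12.4, 7.65 and 8.02 in STZ, 11.9, 12.4 and 11.9 in A10-FMT and 13.9, 11.2 and 11.7 in Con-FMT. All transplanted mice were above the Con mice for this gene, while 2 of 3 STZ mice were not above all of them, and the changes were 0.62 ± 0.15 in A10-FMT and 0.63 ± 0.15 in Con-FMT (adjusted p = 0.021 and 0.019, limma). In Con-FMT the smallest adjusted p belonged to Sdha at 0.61 ± 0.12, Ndufs1 at 0.66 ± 0.15 and Uqcrfs1 at 0.67 ± 0.16. Atp5b averaged 888 ± 67.6 RPKM in A10-FMT and 960 ± 231 in Con-FMT, between Con at 561 ± 70.0 and STZ at 1228 ± 216 (SD, n = 3), and was called against Con in both.

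Those counts changed with the scaling and when single mice were left out, which also leaves fewer mice in the fit. After scaling 3 members stayed called in A10-FMT, the pseudogene Ndufb4c, Ndufs1 and Ndufaf4, which is 3.30% of members beside 6.28% of genes called higher. In Con-FMT 7 stayed called, 7.69% beside 4.90%. In A10-FMT the count was 2 without A10-FMT mouse 1 (6.75% of genes called higher), 3 without mouse 2 (9.43%) and 0 without mouse 3 (4.99%). It was 0 without Con mouse 1 (4.18%) and 1 without Con mouse 3 (5.64%). In each of these 5 fits the share of members called was below that of all genes. The fit without Con mouse 2 went the other way, with 16 members higher, 17.6%, beside 1289 of 10568 genes. In Con-FMT the count was 1 without Con-FMT mouse 1 (4.84%) and 7 without mouse 3 (8.41%). It was 1 without Con mouse 1 (4.82%) and 3 without Con mouse 3 (6.06%), each again below the share of genes. Above that share were the fit without Con-FMT mouse 2, with 32 members (35.2%, beside 1898 of 10584 genes), and that without Con mouse 2, with 24 (26.4%, beside 1392 of 10568). A10-FMT and Con-FMT were also compared directly. None of the members was called, none had an unadjusted p under 0.05 (limma), and 0% of all genes were called. The median change was -0.03, from -0.13 without Con-FMT mouse 2 to 0.10 without Con-FMT mouse 1, and for Ndufs1 the levels were 52.6 ± 0.30 RPKM in A10-FMT and 56.3 ± 10.2 in Con-FMT. Missing the threshold does not show that the transplants act alike.

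**Figure D4:**
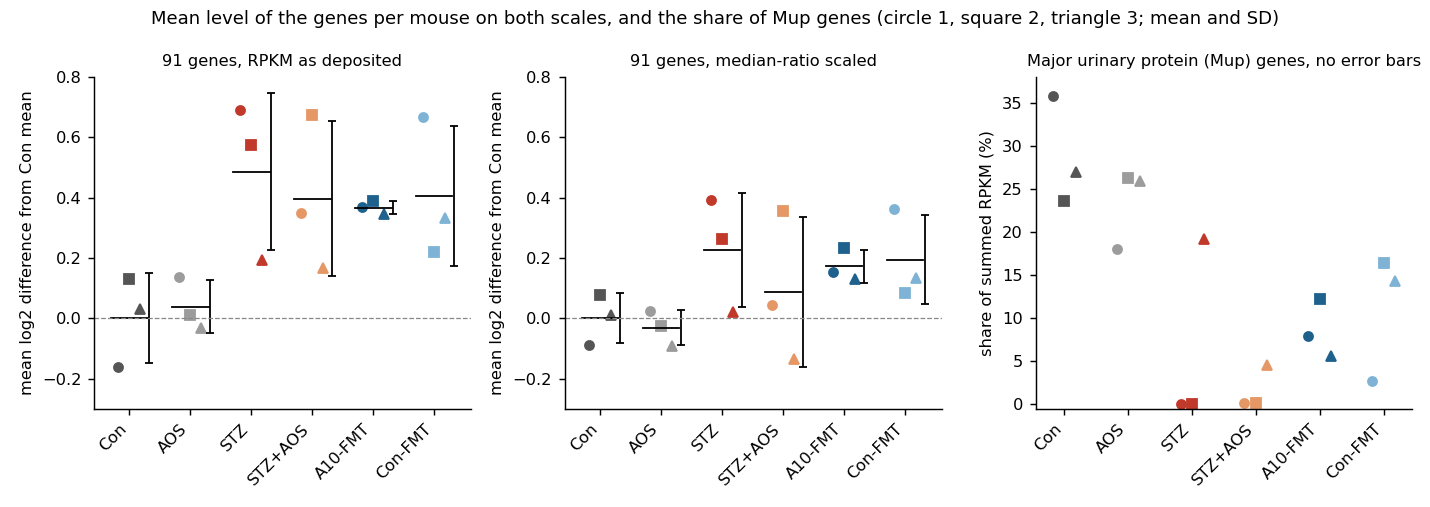
Mean over the 91 tested members of the log2 difference from the Con mean in every mouse, with RPKM as deposited on the left and after median-ratio scaling in the middle, and the Mup share of summed RPKM on the right, where no error bars are drawn. On the left all 12 STZ-treated mice lie above 0, from 0.17 to 0.69, and after scaling they lie between -0.13 and 0.39. In Con, STZ, STZ+AOS and Con-FMT the mouse with the largest Mup share had the lowest mean, and in A10-FMT it had the highest.

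The members differed among mice of 1 group, and the Mup share differed with them in some groups but not in all. The mean of the 91 members, as a log2 difference from Con, was 0.69, 0.58 and 0.19 in the 3 STZ mice, whose Mup shares were 0.0327%, 0.0274% and 19.2%. In Con-FMT it was 0.67, 0.22 and 0.33, with Mup shares of 2.77%, 16.4% and 14.3%. In STZ+AOS it was 0.35, 0.68 and 0.17 at shares of 0.131%, 0.123% and 4.53%. In these 3 groups the mouse with the largest share had the lowest mean. In A10-FMT the order was the other way, with means of 0.37, 0.39 and 0.34 at shares of 7.90%, 12.3% and 5.65%. After scaling the order of the mice stayed in STZ, at 0.39, 0.26 and 0.02, in Con-FMT, at 0.36, 0.09 and 0.13, and in STZ+AOS, at 0.04, 0.36 and -0.13. The part of the Mup share in these differences was not tested.

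AOS without STZ left the members near Con. None of the 91 was called, none had an unadjusted p under 0.05 (limma), 0.00924% of all genes were called, and the median change was 0.05, beside 0.06 for all genes, turning to -0.02 after scaling and -0.04 without Con mouse 1. Complex II had the highest median at 0.21. STZ+AOS against STZ likewise gave 0 members called, with 2 at an unadjusted p under 0.05 (limma), 0% of genes called and a median of -0.09, which turned to 0.02 without STZ mouse 1 and 0.03 without STZ+AOS mouse 3. In STZ+AOS against AOS, the STZ effect in mice that all had AOS, 30 members were higher and 0 lower, where 31.8% of genes were called higher and 6.11% lower. That share of members, 30 of 91, was near the share of all genes. The median was 0.37, which was 0.15 above that of all genes. After scaling 13 were higher and 3 lower, Ndufv3, Ndufs8 and Ndufaf8, with 12.2% of genes called higher and 12.4% lower. Without STZ+AOS mouse 2, 17 members were higher (18.7%, against 30.6% of genes) and 2, Ndufv3 and Ndufb3, were lower (against 6.92% of genes). Without AOS mouse 2, 19 were higher (20.9%, against 21.2% of genes), and without AOS mouse 3, 16 were (17.6%, against 22.8%). Without AOS mouse 1 it was 23 (25.3%, beside 2874 of 10808 genes), and without STZ+AOS mouse 1 it was 25 (27.5%, beside 3147 of 10783). Without STZ+AOS mouse 3, however, 43 were higher (47.3%, beside 2912 of 10773 genes), with medians of 0.51 for members and 0.20 for genes.

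Of the 51 members called in STZ against Con and the 30 called in STZ+AOS against AOS, 27 were in both, which is 52.9% of the first and 90.0% of the second. Over all genes called higher, the shared genes made up 69.2% and 70.4%. These comparisons share no mice. The 3 members called only with AOS were Cox7a1, Ndufa4 and Ndufaf6. The smallest adjusted p with AOS belonged to Ndufaf4, Cox6b2 and Atp5b. Ndufaf4 held 8.19, 6.95 and 8.58 RPKM in AOS and 15.5, 14.4 and 11.97 in STZ+AOS, a change of 0.75 ± 0.11 (adjusted p = 0.00038, limma). Cox6b2 held 0.41, 0.20 and 0.35 RPKM in AOS and 1.72, 1.47 and 3.52 in STZ+AOS, which is again a description, since it was tested only because it was high with STZ. Cox7a1 held 2.46, 1.72 and 2.38 RPKM in AOS and 6.52, 12.3 and 6.56 in STZ+AOS, so its groups did not overlap, and the change was 1.52 ± 0.42 (adjusted p = 0.011, limma). Atp5b held 635, 619 and 590 RPKM in AOS and 1030, 1337 and 1107 in STZ+AOS, a change of 0.90 ± 0.18.

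**Figure D5:**
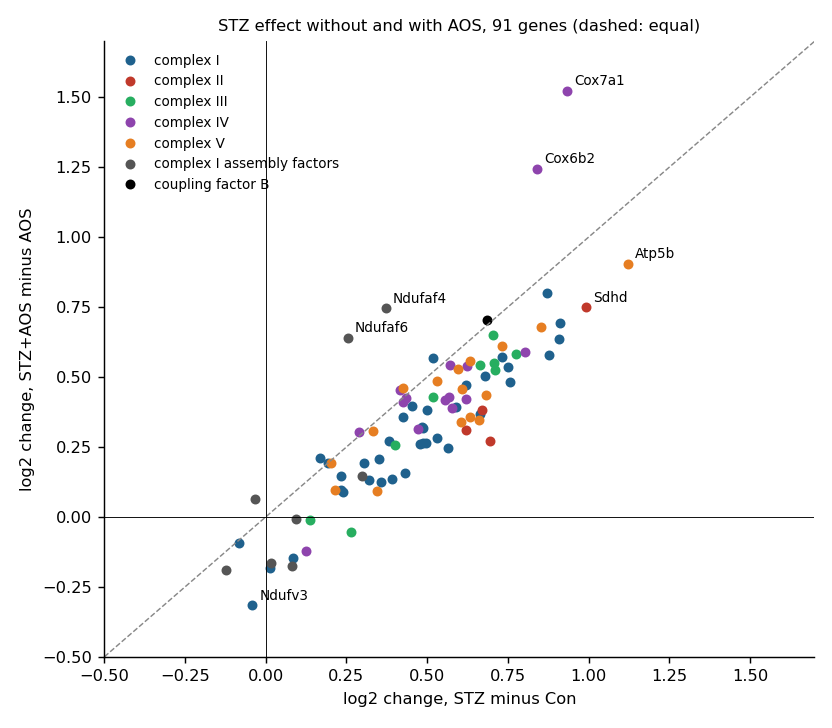
Log2 change of the 91 members in STZ against Con (horizontal axis) and in STZ+AOS against AOS (vertical axis), coloured by complex, with the line of equal change dashed. Of the 91 points 79 are above 0 on both axes, Atp5b lies at 1.12 and 0.90, and Cox7a1 and Cox6b2 lie above the line at 1.52 and 1.24 on the vertical axis. Both axes shift toward 0 after median-ratio scaling.

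Whether AOS altered the STZ effect was tested as the difference of both effects in 1 fit of all 18 mice. None of the 91 members was called, 2 had an unadjusted p under 0.05 (limma) and 0% of all genes were called. The median difference was -0.15, with 80 of 91 below 0, beside -0.01 for all genes. It rested on single mice, at -0.02 with 40 of 91 above 0 without STZ+AOS mouse 3, -0.31 without STZ+AOS mouse 2, -0.29 without STZ mouse 3 and -0.06 without STZ mouse 1 or Con mouse 1. The members with unadjusted p under 0.05 were Sdha at -0.42 and Ndufaf4 at 0.38. With a median SE of 0.24, differences of the size of the median could not be resolved for a single gene.

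Neighbouring pathways give the setting in STZ against Con, from lists taken from textbook knowledge, to be read beside the 33.0% of all tested genes called higher and their median of 0.21. All 17 tested genes of mitochondrial beta-oxidation rose (median 0.87), as did 17 of 18 of the tricarboxylic acid cycle (median 0.82). Acad10, an acyl-CoA dehydrogenase, changed by 1.60 ± 0.28, and Cpt1a, which admits fatty acids to mitochondria, by 1.51 ± 0.23. In the cycle, Idh2 changed by 2.04 ± 0.31 and Fh1 by 1.52 ± 0.21. Of other genes that feed electrons to ubiquinone 8 of 10 rose (median 0.73), with Aifm2 at 1.08 and Etfdh at 0.90, and of those for coenzyme Q synthesis and cytochrome c 7 of 14 rose (median 0.43), with Coq10b at 1.54 and Coq6 at 0.73. The median of all members was 0.50 on the same scale, and the difference from these lists was not tested.

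Of assembly factors for all complexes 13 of 42 rose and 2 fell, a share near that of all genes, and their median of 0.18 was not above that of all genes. Cox10, needed for the heme of complex IV, changed by 0.86 and Nubpl by 0.81. The 2 that fell were Cox19, a copper chaperone of complex IV, at -0.42 and Pet100 at -0.41. Of regulators of mitochondrial gene expression 11 of 19 rose (median 0.33). Ppargc1a, the coactivator PGC-1alpha, held 0.56, 0.77 and 0.68 RPKM in Con and 4.72, 8.84 and 2.98 in STZ, a change of 1.86 ± 0.28. Ppargc1a reached 1 RPKM only in STZ-treated mice, so it had to be high there to be tested. The values of Ppargc1a are therefore a description, although it counts among the 11. Its partner Esrra changed by 0.89 ± 0.17. Of carriers, uncoupling proteins and inhibitors 3 of 8 rose (median 0.54), with the ATP synthase inhibitor Atpif1 at 1.08 and the ADP/ATP carrier Slc25a5 at 0.87. Of outer membrane and import genes 10 of 18 rose (median 0.48), with the channels Vdac1 at 0.84 and Vdac2 at 0.81. Mitochondrial ribosomal proteins, with 19 of 78 higher and a median of 0.22, were at the median of all genes and called at a share under 33.0%, with Mrps35 at 0.74 and Mrpl12 at 0.69. Cytosolic ribosomal proteins had 13 of 80 higher, also a share under 33.0%, and a median of 0.33, with Rpl36 at 0.93 and Rplp0 at 0.68.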

How the data were processed

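Liver RNA of 18 mice was sequenced after poly(A) selection. Per the submitters' processing notes, Bowtie 0.12.2 and mm10 were used, and the study's methods name another aligner, so the one used for this table is unsure. The deposited values are RPKM made by the authors, with 2 decimals, and the gene models behind them are not given in the sources used here. Near-identical paralogs (Ndufb4, Ndufb4b and Ndufb4c, the Atp5g genes, Cox7a2 and Cox7a2l) may share reads. Symbols turned into dates by a spreadsheet (24 rows) are no members.

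From these values limma 3.58.1 in R 4.3.3 was fitted to log2(RPKM + 1) with a mean-dependent prior variance, keeping genes that reached 1 RPKM in 3 or more fitted libraries. Con, STZ, A10-FMT and Con-FMT were fitted together (12 libraries), and contrasts with AOS groups in all 18. Adjusted p is Benjamini-Hochberg over all tested genes, and a gene called is one under 0.05. The code was tested on simulated data. Alternatives were median-ratio scaling, a pseudocount of 0.1, no filter, all 6 groups in the fit, a replicate block and leaving out each mouse. The lists and members were chosen with earlier results of these data known, and no test over the members as a set was made. An exact permutation test planned for the summed level is not given. Named were the 2 highest and 2 lowest changes per complex, the catalytic subunits, isoform pairs, up to 3 called members with the smallest adjusted p in each direction per contrast, the most and least abundant member per complex, and up to 2 called genes per list. Other names were chosen after their values were seen. The values of 1 member are not reported here, and it stays in all counts and sums. The mice count as biological replicates only as far as the labels say, so p-values measure the spread between these samples. Same-numbered mice deviated together (correlations of 0.12, 0.29 and 0.18) only in A10-FMT against Con-FMT, where the block changed no call.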

Additional observations from a re-analysis of the deposited data

How the results depend on the processing

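Median-ratio scaling, which puts the median gene near 0, lowered the counts of members called, to 28 in STZ against Con (median change 0.23), 3 in A10-FMT against Con (median 0.195), 7 in Con-FMT against Con and 16 in STZ+AOS against AOS (median 0.12). Testing genes without a filter gave 7 in A10-FMT against Con and 13 in Con-FMT against Con, where more genes share the adjustment. These were 7.37% and 13.7% of members, beside 1202 and 1321 of 17912 genes called higher. The replicate block, with mouse number as a block, gave 9 and 14 in those comparisons, and the numbers do not pair the mice there. These were 9.89% and 15.4% of members, beside 1221 and 1297 of 10602 genes called higher. A pseudocount of 0.1 and a fit of all 6 groups changed no count by over 1.5 times. Leaving out 1 mouse at a time gave 26 to 70 members in STZ against Con, 0 to 5 in A10-FMT against STZ, 0 to 2 in Con-FMT against STZ, 0 to 16 in A10-FMT against Con, 1 to 32 in Con-FMT against Con and 16 to 43 in STZ+AOS against AOS, with fewer samples in each fit. In the same order, 2562 to 5012, 0 to 1343 and 0 to 1636 genes were called in these fits. For the last 3 comparisons it was 547 to 1468, 603 to 2096 and 2767 to 4045. Between 10548 and 10813 genes were tested. Scaling together with leaving out STZ mouse 3, chosen after seeing the data, called 6 of 90 members for either transplant against STZ. In A10-FMT 1 was higher and 5 lower, with 1407 of 10570 genes called. In Con-FMT 2 were higher and 4 lower, with 1880 of 10570 genes called. In the other comparisons 0 members were called throughout.

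Some named members that did not pass the test in STZ against Con changed sign. Under scaling Uqcr11 was -0.13, Uqcrq -0.0067, Ndufa4l2 -0.029, Atp5e -0.067, Atp5j -0.056 and Ndufaf8 -0.18. Under scaling without STZ mouse 3 Uqcr11 was -0.026, Atp5e -0.026 and Ndufaf8 -0.18. When 1 mouse was left out, Ndufa3 ranged from -0.23 to 0.052, Ndufv3 from -0.15 to 0.039, Uqcr11 from -0.0042 to 0.29, Ndufa4l2 from -0.082 to 0.25, Atp5e from -0.0083 to 0.33, Ndufaf1 from -0.092 to 0.00090 and Ndufaf8 from -0.10 to 0.22. The cause of these changes was not tested. Sequencing depth was not given, so genes under 1 RPKM carry an unknown counting error.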

Other observations

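The neighbouring pathways were also followed in the transplanted mice and in mice given AOS. Of 17 genes of mitochondrial beta-oxidation, 15 were higher in A10-FMT than in Con (median 0.75), 16 in Con-FMT (median 0.71) and 12 in STZ+AOS against AOS (median 0.48). In that order, 15.9%, 17.5% and 31.8% of all tested genes were called higher, with medians of 0.16, 0.19 and 0.21. Values of these lists after scaling are not given here. Cpt1a, which admits fatty acids to mitochondria, averaged 41.1 ± 1.61 RPKM in Con, 109 ± 5.44 in A10-FMT, 106 ± 38.0 in Con-FMT and 122 ± 35.5 in STZ (SD, n = 3). Against Con its log2 change was 1.39 in A10-FMT, and it was 1.28 in Con-FMT (adjusted p = 0.0045 and 0.0075, limma). Of 18 genes of the tricarboxylic acid cycle, 10 were higher and 1 lower in A10-FMT than in Con (median 0.54). In Con-FMT 12 were higher and 1 lower (median 0.63). Of all tested genes, 2.47% were called lower in A10-FMT and 1.89% in Con-FMT, beside the shares called higher given above.

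Ppargc1a held 1.91, 1.81 and 2.48 RPKM in A10-FMT and 3.07, 1.34 and 2.61 in Con-FMT, above all Con mice and, but for Con-FMT mouse 1, below all STZ mice. Against STZ its log2 change was -0.99 in A10-FMT, and it was -0.90 in Con-FMT. Neither change passed the test (adjusted p = 0.10 and 0.13, limma). In STZ+AOS it held 4.33, 4.27 and 8.48 RPKM, all above the 3 AOS mice at 0.91, 0.85 and 0.82, a change of 1.79. This is again a description, since Ppargc1a was tested only because it was high with STZ.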
